A study of Mus musculus with 6 samples.

Results

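A set of 40 endothelial genes, chosen by symbol as known genes of this cell type, was followed in a lung fraction labelled as B cells. The choice was made with earlier results of these data known. All 40 were found among the 22481 genes of the expression table, each in 1 row. The fraction came from lungs of C57BL/6 mice 3 months old, either wild type (WT) or 5xFAD, with 3 libraries of each genotype and 6 in all. 5xFAD mice are a transgenic model of Alzheimer's disease, in which the neuronal Thy1 promoter drives mutant human transgenes. B cells were selected on magnetic columns and frozen, and ribosomal RNA was depleted before stranded sequencing. The sources used here do not say whether each library came from its own mouse, so p-values measure the spread between these libraries, which may be technical. Levels are FPKM (fragments per kilobase of transcript and per 1e6 mapped), which allows genes to be compared per length, and tests used the estimated counts. Values are listed in the order of replicates 1, 2 and 3.

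Endothelial cells line blood and lymphatic vessels, and in lung most of them form the capillary net around the alveoli. They hold to each other through VE-cadherin, PECAM1 and claudin-5, read angiopoietins through TEK and TIE1, and read BMP9 and BMP10 through ALK1 and endoglin. The mouse lung has general capillary cells, marked by Aplnr and Gpihbp1, and large capillary cells of gas exchange, marked by Car4 and Ednrb, while veins, arteries and lymphatics carry further markers of their own.

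The libraries held 628581 to 782297 estimated counts, of which Lars2 alone took 37.5% to 45.7%. Of the counts outside Lars2, the 40 endothelial genes took 1.81%, 2.59% and 1.76% in WT and 1.095%, 1.54% and 1.39% in 5xFAD. Each 5xFAD share lay below each WT share, and the Wilson 95% intervals, which cover counting error only, ran from 1.72% to 2.64% over WT and from 1.06% to 1.58% over 5xFAD. In a bulk sample fewer endothelial cells, less endothelial RNA per cell and more RNA from other cells cannot be told apart in such a share. Endothelial and B cell RNA were both present in every library: the 40 genes summed to 949 to 1615 FPKM and the 10 B cell markers found in the table to 274 to 649 FPKM, lists of unequal length that are not compared. Unlike the count shares, the FPKM sums of the 40 genes overlapped, at 1260, 1615 and 1199 in WT and 949, 1223 and 951 in 5xFAD. Genes with at least 0.5 counts numbered 7929 to 10381 in WT and 10490 to 11780 in 5xFAD.

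Upstream sequence is shown for 3 genes, taken from those with the smallest p and those with the highest levels. Vwf and Pecam1 met the same rule and are not printed. Hpgd and Robo4 had the smallest p of the 40 and stood on opposite sides, and Calcrl was among the most abundant and differed little. The 250 bases before the RefSeq start site (GRCm38.p6) were searched on both strands for AGGAAG, a core bound by ETS-family factors such as ERG, and its reverse complement CTTCCT. The expression table starts Robo4 and Calcrl farther upstream than RefSeq does, so that 75 and 145 bases of their windows lie inside the genes' spans, and only the bases before those spans are printed. They lie at chr8:56294302-56294551 on the plus strand for Hpgd, chr9:37401722-37401896 on the plus strand for Robo4 and chr2:84425412-84425516 on the minus strand for Calcrl. Each is written 5′ to 3′ on the strand of the gene, and capitals mark a match.
Hpgd: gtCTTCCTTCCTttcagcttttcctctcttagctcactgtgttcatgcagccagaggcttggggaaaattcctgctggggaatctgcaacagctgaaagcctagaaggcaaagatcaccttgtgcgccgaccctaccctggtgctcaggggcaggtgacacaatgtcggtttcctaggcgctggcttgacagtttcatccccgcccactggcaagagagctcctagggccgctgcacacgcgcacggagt
Robo4: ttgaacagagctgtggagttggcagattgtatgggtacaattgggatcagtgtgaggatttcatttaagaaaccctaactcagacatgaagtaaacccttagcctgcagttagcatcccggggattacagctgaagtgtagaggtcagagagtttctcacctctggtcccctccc
Calcrl: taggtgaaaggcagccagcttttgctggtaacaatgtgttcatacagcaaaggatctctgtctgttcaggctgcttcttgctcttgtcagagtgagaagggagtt
Hpgd had 2 overlapping matches at the far end of its window. The 1 match of Robo4 and the 1 match of Calcrl, 49 and 66 bases before the RefSeq start, lay inside the spans of the expression table and so outside the letters shown. Of the 20 endothelial genes with a window in the RefSeq table, 12 held a match in at least 1 of their windows, against 32.3% of its 27025 genes counted the same way. Genes with more windows have more chances of a match, and a match is a run of letters and not a measured binding site.

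Most of the 40 genes, a list made with earlier results of these data known, stood lower in 5xFAD. Of the 40, 34 had a negative log2 fold change of 5xFAD over WT, against 45.9% of all 9651 genes tested, and the median was -0.47, against 0.11 over all genes tested. The 6 with a positive value were Robo4, Aplnr, Sox17, Nos3, Egfl7 and Eng. No gene of the 40 passed the adjustment over all genes (edgeR quasi-likelihood test, smallest Benjamini-Hochberg adjusted p = 0.246), and DESeq2 and limma also called 0. Over all genes tested, 0.104% were called higher and 0.0104% lower. At an unadjusted p under 0.05, 9 of the 40 were lower, or 22.5%, against 3.55% of all genes tested, and 1 was higher, against 8.43%. On FPKM, limma gave 5 lower genes with a pseudocount of 1, of which Vwf and Hpgd are among the 9. It gave 3 with a pseudocount of 0.1, of which Vwf is among the 9. Among all 9651 genes tested, these limma fits gave 261 and 244 lower. The 9 were Hpgd, Vwf, Ptprb, Tek, Acvrl1, Tmem100, Bmpr2, Clec14a and Lyve1, and the 1 was Robo4. Without WT replicate 3 there were 14 lower genes, and 512 among all 9651 genes tested. Without WT replicate 2 there were 6, and 272 among all genes tested, where the main fit had 343. Tek passed the adjustment without WT replicate 3, its lowest WT library (edgeR adjusted p = 0.0287, range over its 18 alternatives 0.0287 to 0.811). Hpgd passed it without WT replicate 1, its own lowest WT library (edgeR adjusted p = 0.0274, range over its 18 alternatives 0.0274 to 0.811). Over all genes tested, the fit without WT replicate 3 called 56 higher and 19 lower. That without WT replicate 1 called 45 and 22, where the main fit called 10 and 1.

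**Figure D1:**
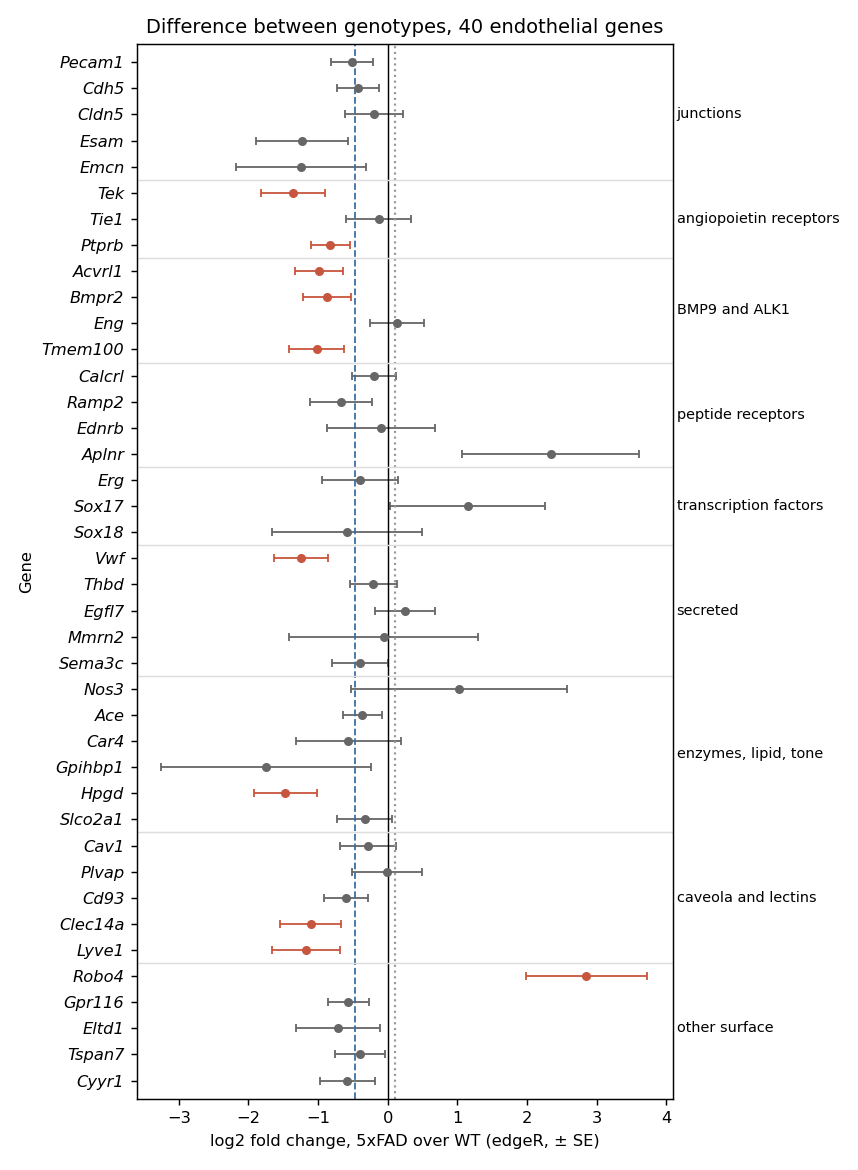
Points show the edgeR log2 fold change of 5xFAD over WT for each of the 40 genes with its standard error, grouped by role, and red marks an unadjusted p under 0.05. The dashed line is the median of the 40 (-0.47) and the dotted line that of all genes tested (0.11): most points lie left of 0, and Robo4 stands farthest to the right at 2.86.

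Some genes separated the genotypes completely. In FPKM, 7 of the 40 had all 5xFAD libraries below the WT range, against 4.42% of all genes tested, and 3 had all of them above it, against 13.0%. In CPM (counts scaled by library size and edgeR factors) the numbers were 9 below, against 5.88%, and 2 above, against 12.4%. Vwf, Acvrl1, Tmem100 and Lyve1 lay below on both scales (4 of 40, against 3.19%), and Robo4 and Aplnr above on both (2 of 40, against 9.42%). Aplnr averaged 0.67 FPKM in WT and reached the mean of 1 FPKM required for testing only through 5xFAD, so its place above is partly set by that filter. Within WT, replicate 2 was the highest library for 24 of the 40 genes and replicate 3 the lowest for 26. Within 5xFAD, replicate 2 was the highest for 24 and replicate 1 the lowest for 24.

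Markers of other cells did not all go the same way. All 10 tested B cell markers had a positive log2 fold change, whereas 45.9% of all genes tested had a negative one. Of the 10, 5 were higher at an unadjusted p under 0.05, against 8.43% of all genes tested. The 10 markers summed to 274 to 336 FPKM in WT and 350.3 to 649 FPKM in 5xFAD. Of 7 platelet and megakaryocyte markers 3 were tested, their log2 fold changes were -4.32 (Gp9), -2.36 (Ppbp) and 0.24 (Itga2b), the list summed to 8.22 to 31.3 FPKM in WT and 2.13 to 6.08 FPKM in 5xFAD, and Pf4, Gp1ba and Gp1bb were listed at 0 in each WT library and above 0 in at least 1 5xFAD library. Gp9 had few estimated counts, 0, 7.03 and 31.2 in WT and 0, 1.89 and 0 in 5xFAD. Red cell markers summed to 0 FPKM in each WT library and to 5.61 to 11.6 FPKM in 5xFAD, with Alas2 listed at 0 throughout. In 5xFAD the estimated counts were 3.99, 6.62 and 4.59 for Hba-a1 and 0, 4.73 and 5.50 for Hbb-bs. The locus of Hba-a1 holds 15 genes. The genotypes overlapped for every other list. Fibroblast markers summed to 24.9 to 54.3 FPKM in WT and 42.7 to 119 FPKM in 5xFAD, and alveolar epithelial markers to 123 to 275 FPKM in WT and 136 to 191 FPKM in 5xFAD. Pericyte and smooth muscle markers summed to 5.99 to 31.1 FPKM in WT and 9.95 to 27.6 FPKM in 5xFAD, and T and NK cell markers to 9.302 to 21.6 FPKM in WT and 7.86 to 15.6 FPKM in 5xFAD. Monocyte and macrophage markers summed to 211 to 340.04 FPKM in WT and 179.6 to 484 FPKM in 5xFAD, and neutrophil markers to 194 to 500.1 FPKM in WT and 244 to 548 FPKM in 5xFAD. The part of these cells, and of the number of genes detected, in the endothelial values was not tested.

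**Figure D2:**
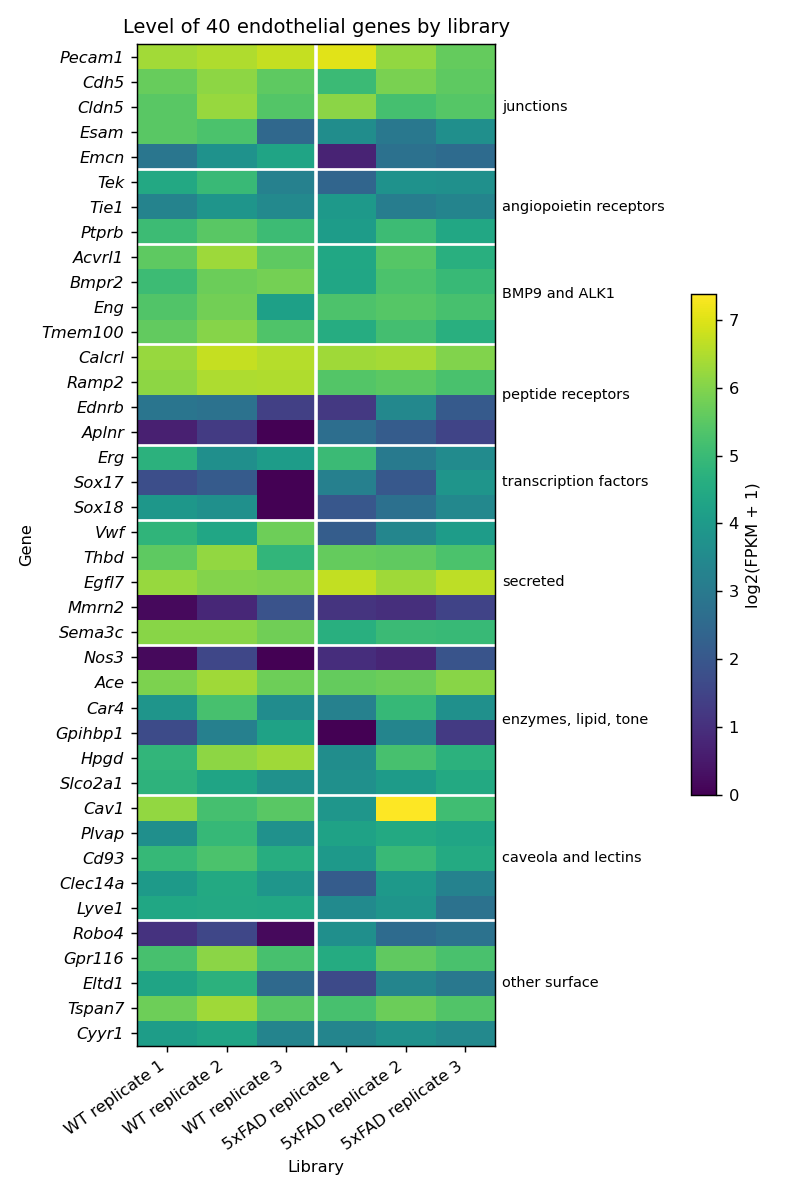
Each cell of the plot shows log2(FPKM + 1) of 1 gene, grouped by role, in 1 library, with WT left of the line and 5xFAD right. Pecam1, Calcrl and Egfl7 are bright in all 6 libraries, Mmrn2, Nos3 and Aplnr are dark, and Cav1 is brightest in 5xFAD replicate 2.

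The junction genes were abundant, and all 5 had a negative log2 fold change, from -1.25 to -0.20, with 0 of 5 at an unadjusted p under 0.05. Pecam1, an adhesion receptor that leukocytes and platelets also carry, was the highest of the 40, at 80.2, 88.8 and 104 FPKM in WT and 129.6, 71.7 and 48.5 FPKM in 5xFAD. In FPKM the highest and the lowest library were both 5xFAD, whereas in CPM all 5xFAD libraries lay below WT (log2 fold change -0.51, SE 0.31, edgeR adjusted p = 0.544). Cdh5, VE-cadherin of the adherens junction, was at 49.1, 68.9 and 46.04 FPKM in WT and 31.6, 57.7 and 46.1 FPKM in 5xFAD. Its genotypes overlapped (log2 fold change -0.43, SE 0.30, edgeR adjusted p = 0.637). Cldn5, the tight junction claudin of endothelium, was at 43.7, 74.1 and 41.1 FPKM in WT and 67.2, 35.4 and 42.2 FPKM in 5xFAD. It was highest in WT replicate 2 and 5xFAD replicate 1 (log2 fold change -0.20, SE 0.42, edgeR adjusted p = 0.909). Esam, an immunoglobulin-type junction protein that platelets share, was at 43.4, 37.7 and 4.61 FPKM in WT and 11.3, 6.76 and 11.8 FPKM in 5xFAD. WT replicate 3 was the lowest library and the other WT libraries the highest. Emcn, a sialomucin of capillaries and veins, was at 6.41, 12.6 and 18.6 FPKM in WT and 0.6604, 5.77 and 4.95 FPKM in 5xFAD, which separated the genotypes in FPKM but not in CPM (log2 fold change -1.25, SE 0.93, edgeR adjusted p = 0.661).

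Of the angiopoietin receptor genes, Tek, the receptor TIE2, was at 20.97, 31.2 and 8.37 FPKM in WT and 4.25, 12.4 and 11.9 FPKM in 5xFAD. WT replicate 3 lay within the 5xFAD range (log2 fold change -1.35, SE 0.46, edgeR adjusted p = 0.2896). Ptprb, the phosphatase VE-PTP that acts on TIE2 and VE-cadherin, was at 32.5, 43.5 and 32.3 FPKM in WT and 15.8, 32.4 and 20.2 FPKM in 5xFAD. The ranges touched in FPKM, where 5xFAD replicate 2 just passed WT replicate 3, and were apart in CPM (log2 fold change -0.83, SE 0.28, edgeR adjusted p = 0.2896). Tie1, the orphan partner of TIE2, was at 8.74, 13.4 and 10.1 FPKM in WT and 14.8, 7.77 and 9.104 FPKM in 5xFAD, with the genotypes mixed (log2 fold change -0.13, SE 0.47, edgeR adjusted p = 0.953). Tek over Tie1 was 2.399, 2.33 and 0.828 in WT and 0.288, 1.599 and 1.31 in 5xFAD, which overlapped.

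BMP9 signals through ALK1, a pathway mutated in hereditary haemorrhagic telangiectasia. Of its 4 genes, listed with earlier results of these data known, 3 were lower at an unadjusted p under 0.05, against 3.55% of all genes tested. On log2(FPKM + 1), limma gave an unadjusted p of 0.0657 for Acvrl1, 0.0795 for Tmem100, 0.176 for Bmpr2 and 0.686 for Eng. Acvrl1, the type I receptor ALK1, was at 45.4, 77.6 and 45.4 FPKM in WT and 20.1, 42.4 and 24.1 FPKM in 5xFAD. The genotypes did not overlap, by a small gap between 5xFAD replicate 2 and WT replicate 3 (log2 fold change -0.98, SE 0.34, edgeR adjusted p = 0.2896). Tmem100, a membrane protein induced by this pathway, was at 47.6, 64.4 and 39.4 FPKM in WT and 22.7, 35.2 and 24.1 FPKM in 5xFAD, again without overlap (log2 fold change -1.02, SE 0.39, edgeR adjusted p = 0.312). Bmpr2, the type II receptor, which many cell types use, was at 32.1, 51.9 and 56.1 FPKM in WT and 19.4, 37.6 and 29.98 FPKM in 5xFAD. 5xFAD replicate 2 lay above WT replicate 1 (log2 fold change -0.87, SE 0.34, edgeR adjusted p = 0.321). Eng, the coreceptor endoglin, was at 40.8, 54.4 and 17.3 FPKM in WT and 38.8, 42.4 and 36.8 FPKM in 5xFAD, lowest in WT replicate 3 (log2 fold change 0.14, SE 0.39, edgeR adjusted p = 0.937). Its locus in the table also holds Fpgs and Ak1, so the division of reads is uncertain.

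Calcrl and Ramp2, which together form the adrenomedullin receptor, were both among the 4 most abundant genes of the 40. Calcrl was at 74.7, 104 and 91.9 FPKM in WT and 78.4, 82.03 and 61.6 FPKM in 5xFAD, with overlap (log2 fold change -0.19, SE 0.32, edgeR adjusted p = 0.873). Ramp2 was at 68.9, 86.8 and 89.9 FPKM in WT and 41.3, 45.1 and 36.9 FPKM in 5xFAD, below WT throughout in FPKM. Its estimated counts, 78.1, 128 and 123 in WT and 86.8, 76.6 and 59.6 in 5xFAD, overlapped (log2 fold change -0.67, SE 0.44, edgeR adjusted p = 0.591), and its locus also holds Vps25. In FPKM, Ramp2 over Calcrl was 0.922, 0.835 and 0.979 in WT and 0.526, 0.5496 and 0.599 in 5xFAD, a ratio picked after the values were seen that did not separate the genotypes in counts. Ednrb, the endothelin B receptor, ranged over 1.64 to 6.25 FPKM in WT and 1.31 to 9.83 FPKM in 5xFAD. Aplnr, the apelin receptor, was at 0.568, 1.44 and 0 FPKM in WT and 5.304, 3.396 and 1.84 FPKM in 5xFAD, above WT throughout (log2 fold change 2.34, SE 1.27, edgeR adjusted p = 0.482). Its estimated counts were 3.95, 10.04 and 0 in WT and 36.9, 23.6 and 12.8 in 5xFAD, and its locus also holds Lrrc55.

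Among transcription factors, Erg, an ETS factor that maintains endothelial identity, ranged over 11.8 to 25.7 FPKM in WT and 7.16 to 31.8 FPKM in 5xFAD. Sox17, a SOXF factor of arterial endothelium, was at 2.44, 3.31 and 0 FPKM in WT and 8.24, 3.11 and 13.5 FPKM in 5xFAD (log2 fold change 1.15, SE 1.11, edgeR adjusted p = 0.754). Sox18, its relative in vessel development, was at 13.8, 12.02 and 0 FPKM in WT and 2.99, 5.66 and 9.76 FPKM in 5xFAD (log2 fold change -0.59, SE 1.08, edgeR adjusted p = 0.8899). WT replicate 3 listed 0 for both, and also for Aplnr and Nos3, which allows up to 4.77 CPM, the level of 3 counts. Neither SOXF gene exceeded 41.5 estimated counts in any library.

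Robo4, a roundabout receptor that stabilises vessels, departed most from the set. It was at 1.096, 1.95 and 0.144 FPKM in WT and 11.8, 4.98 and 5.82 FPKM in 5xFAD, and no WT library reached the lowest 5xFAD value. Its estimated counts were 7.91, 14.1 and 1.04 in WT and 89.8, 35.9 and 44.03 in 5xFAD (log2 fold change 2.86, SE 0.87, edgeR adjusted p = 0.246). Robo4 over Cdh5 in FPKM was 0.0223, 0.0283 and 0.00313 in WT and 0.373, 0.0863 and 0.126 in 5xFAD. This ratio is made from the FPKM values already given and is not a separate result. The log2 fold change of Robo4 was positive in all 17 other settings that tested it, from 2.07 to 3.55, with adjusted p from 0.0836 to 0.829 by edgeR, DESeq2 or limma. Gpr116 and Eltd1, adhesion-type receptors now named Adgrf5 and Adgrl4, Tspan7, a tetraspanin, and Cyyr1 had log2 fold changes from -0.71 to -0.40. Gpr116, which alveolar epithelium also expresses, ranged over 36.2 to 67.6 FPKM in WT and 22.1 to 46.5 FPKM in 5xFAD. Tspan7 was at 52.4, 78.2 and 42.8 FPKM in WT and 36.7, 51.3 and 40.6 FPKM in 5xFAD, with overlap (log2 fold change -0.40, SE 0.36, edgeR adjusted p = 0.73001).

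**Figure D3:**
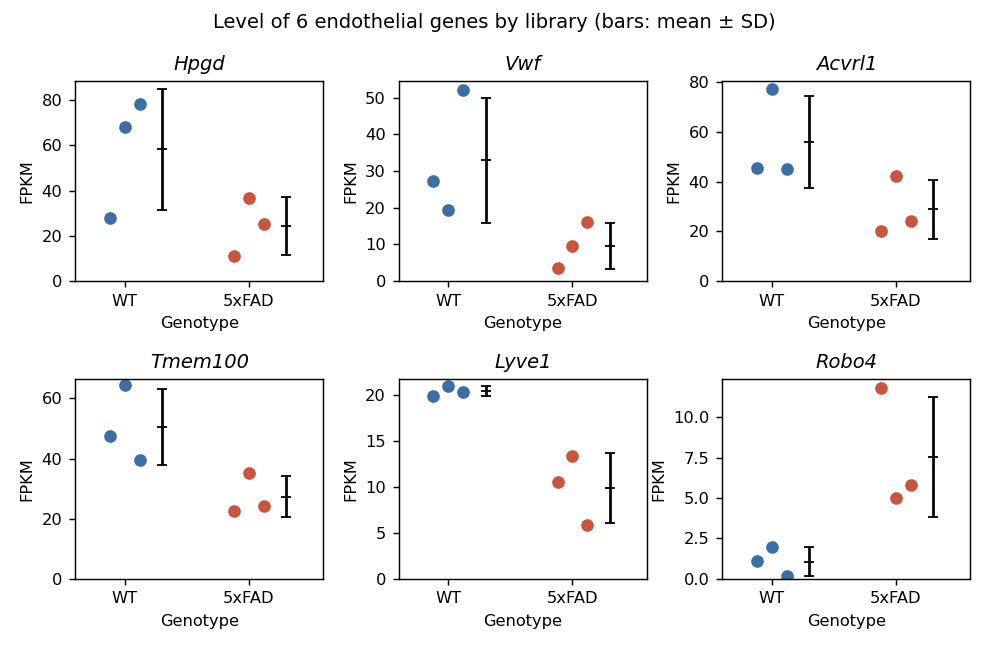
Points are FPKM in single libraries (3 WT, 3 5xFAD), with the mean and SD beside them, for 6 of the 10 genes with an unadjusted p under 0.05. Vwf, Acvrl1, Tmem100 and Lyve1 have all 5xFAD points below the WT points, Hpgd overlaps, and Robo4 has all 5xFAD points above.

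Among secreted and haemostatic products, Vwf, von Willebrand factor of larger vessels and of platelets, was at 27.2, 19.5 and 52.1 FPKM in WT and 3.499, 9.47 and 15.99 FPKM in 5xFAD. The genotypes did not overlap (log2 fold change -1.25, SE 0.39, edgeR adjusted p = 0.249). The summed platelet markers, though not each marker, were also lower in 5xFAD, and their part in Vwf was not tested. Thbd, thrombomodulin, which turns thrombin to activating protein C, was at 45.95, 71.5 and 27.8 FPKM in WT and 48.96, 46.7 and 38.1 FPKM in 5xFAD, with overlap (log2 fold change -0.21, SE 0.34, edgeR adjusted p = 0.871). Egfl7, a secreted matrix protein whose gene hosts miR-126, was at 74.3, 63.3 and 61.2 FPKM in WT and 103, 78.4 and 99.5 FPKM in 5xFAD, above WT throughout in FPKM. Its estimated counts, 133, 116 and 44.7 in WT and 106, 120.1 and 147 in 5xFAD, overlapped (log2 fold change 0.25, SE 0.43, edgeR adjusted p = 0.878), and its locus holds 3 other genes. Sema3c, a semaphorin, was at 65.9, 65.9 and 53.6 FPKM in WT and 24.1, 31.6 and 30.5 FPKM in 5xFAD. Its estimated counts, 156, 445 and 101 in WT and 156, 244 and 179.8 in 5xFAD, overlapped although its FPKM did not (log2 fold change -0.40, SE 0.41, edgeR adjusted p = 0.771). Mmrn2, a multimerin of the endothelial matrix, stayed at or under 2.697 FPKM in all 6 libraries.

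Among enzymes and lipid handling genes, Hpgd, which inactivates prostaglandins, was at 28.1, 68.2 and 78.3 FPKM in WT and 11.2, 36.5 and 25.4 FPKM in 5xFAD. WT replicate 1 lay below 5xFAD replicate 2 and above the other 5xFAD libraries (log2 fold change -1.47, SE 0.45, edgeR adjusted p = 0.246). Slco2a1, the transporter that brings prostaglandins to this enzyme, ranged over 12.2 to 26.03 FPKM in WT and 12.1 to 21.2 FPKM in 5xFAD. Ace, angiotensin-converting enzyme of lung capillaries, was at 59.8, 79.4 and 52.8 FPKM in WT and 48.5, 51.4 and 66.1 FPKM in 5xFAD, with overlap (log2 fold change -0.36, SE 0.29, edgeR adjusted p = 0.687). Car4, a carbonic anhydrase of the capillary surface, ranged over 11.001 to 36.3 FPKM in WT and 8.38 to 29.8 FPKM in 5xFAD. Gpihbp1, which holds lipoprotein lipase on capillaries, was at 2.24, 8.296 and 18.1 FPKM in WT and 0, 9.24 and 1.38 FPKM in 5xFAD. Its estimated counts were at most 23.9. Nos3, endothelial nitric oxide synthase, stayed at or under 2.79 FPKM.

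Cav1, caveolin-1, which alveolar type I cells and fibroblasts also express, was at 72.1, 35.8 and 44.2 FPKM in WT and 13.6, 165 and 33.6 FPKM in 5xFAD. 5xFAD replicate 2 stood far above the rest. Its estimated counts were 156, 179.8 and 125 in WT and 66.8, 249.7 and 116 in 5xFAD, a smaller gap (log2 fold change -0.28, SE 0.40, edgeR adjusted p = 0.8504), and the locus also holds Cav2. Clec14a, a C-type lectin of vessels, was at 15.3, 21.3 and 13.7 FPKM in WT and 3.46, 14.7 and 8.61 FPKM in 5xFAD. In FPKM 5xFAD replicate 2 lay inside the WT range, and in CPM the genotypes did not overlap (log2 fold change -1.11, SE 0.44, edgeR adjusted p = 0.322). Cd93, a related lectin, ranged over 23.2 to 37.9 FPKM in WT and 14.6 to 30.9 FPKM in 5xFAD, and Plvap, which forms the diaphragms of caveolae and fenestrae, over 11.7 to 29.8 FPKM in WT and 17.8 to 21.3 FPKM in 5xFAD. Lyve1, a hyaluronan receptor of lymphatics that some lung macrophages also carry, was at 19.9, 21.02 and 20.4 FPKM in WT and 10.5, 13.4 and 5.85 FPKM in 5xFAD. The WT libraries lay close together and above all 5xFAD libraries (log2 fold change -1.17, SE 0.48, edgeR adjusted p = 0.332). Mrc1, a macrophage receptor, also lay below WT in all 5xFAD libraries, at 6.996, 5.11 and 4.91 FPKM in WT and 1.51, 3.48 and 1.903 FPKM in 5xFAD (log2 fold change -1.63, SE 0.65, edgeR adjusted p = 0.324), and its part in the Lyve1 values was not tested.

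Vessel classes were compared over genes of the 40 and further class genes outside it, beside 45.9% negative, 3.55% lower at an unadjusted p under 0.05 and a median of 0.11 over all genes tested. For capillaries, 9 genes of the 40 and 7 others were tested, and 14 of the 16 had a negative log2 fold change, 3 at an unadjusted p under 0.05, with a median of -0.58. The 16 summed to 306, 410.4 and 337 FPKM in WT and 151, 291 and 209.98 FPKM in 5xFAD, without overlap. The 9 genes of the 40 alone summed to 190, 297 and 230 FPKM in WT. In 5xFAD they summed to 98.5, 205 and 135 FPKM, with overlap. Of the capillary cell markers, Aplnr had a log2 fold change of 2.34, Gpihbp1 -1.75, Car4 -0.56 and Ednrb -0.10. None of these markers had an unadjusted p under 0.05 (edgeR). Prx, periaxin, had the smallest p and the highest level of the 7, at 26.9, 30.05 and 19.1 FPKM in WT and 7.54, 17.1 and 18.8 FPKM in 5xFAD (log2 fold change -0.90, SE 0.37, edgeR adjusted p = 0.337). For veins, 7 of 10 genes were tested and 5 were negative, 2 at an unadjusted p under 0.05, with a median of -0.33. They summed to 73.4, 63.999 and 96.2 FPKM in WT and 31.3, 46.2 and 53.3 FPKM in 5xFAD, also without overlap. Without Vwf and Slco2a1, the venous genes of the 40, the list summed to 20.2, 25.6 and 31.9 FPKM in WT. In 5xFAD that shorter list summed to 15.6, 21.1 and 16.1 FPKM, with overlap. Ephb4, the ephrin receptor of veins, was at 7.61, 9.21 and 18.1 FPKM in WT and 2.91, 8.64 and 4.995 FPKM in 5xFAD (log2 fold change -1.19, SE 0.53, edgeR adjusted p = 0.364), and 1 other gene lies in its locus.

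Arterial genes were mixed. Of 8 tested, 5 were negative, 2 at an unadjusted p under 0.05 (45.9% and 3.55% of all genes), and 3 were positive, Sox17 among them, with a median of -1.13. They summed to 36.96, 54.5 and 90.1 FPKM in WT and 46.6, 35.7 and 32.3 FPKM in 5xFAD, with overlap. Dll4, the Notch ligand of arteries, was at 7.15, 9.85 and 18.3 FPKM in WT and 1.99, 7.83 and 4.62 FPKM in 5xFAD (log2 fold change -1.87, SE 0.60, edgeR adjusted p = 0.266). Efnb2, ephrin-B2 and the ligand of EPHB4, was at 12.4, 14.5 and 53.6 FPKM in WT and 13.95, 10.6 and 6.68 FPKM in 5xFAD, with WT replicate 3 far above the rest (log2 fold change -0.46, SE 0.44, edgeR adjusted p = 0.7503). Venous over capillary sums were 0.2401, 0.156 and 0.286 in WT and 0.208, 0.159 and 0.254 in 5xFAD. Arterial over capillary sums were 0.121, 0.133 and 0.267 in WT and 0.3099, 0.123 and 0.154 in 5xFAD. Both ratios overlapped between the genotypes.

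**Figure D4:**
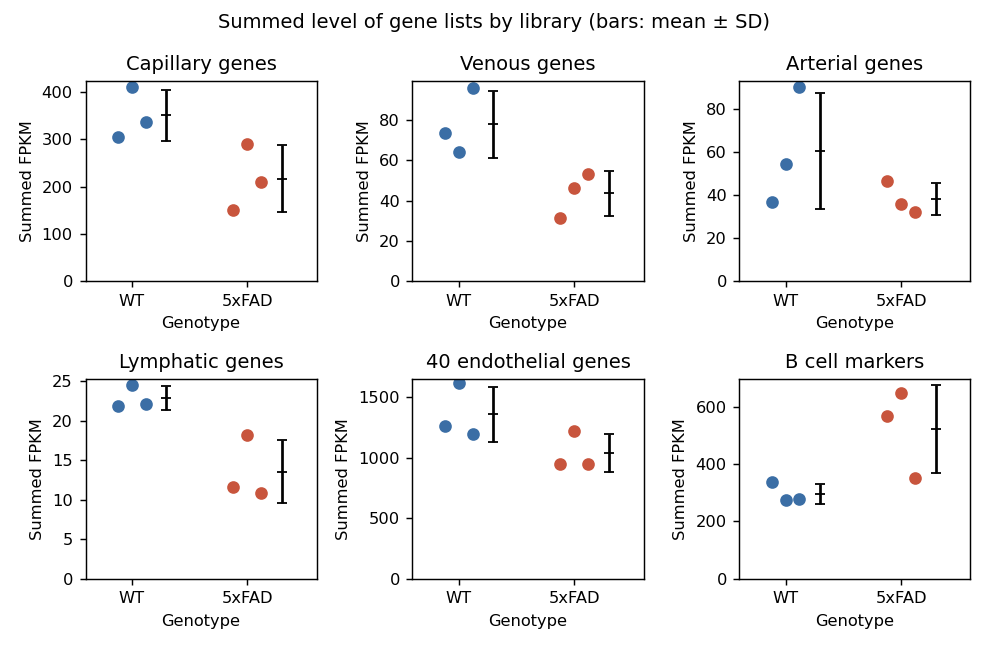
Points are the summed FPKM of a gene list in single libraries (3 WT, 3 5xFAD), with mean and SD beside them. Capillary, venous and lymphatic sums, the last being mostly Lyve1, are lower in all 5xFAD libraries, arterial sums and those of the 40 genes overlap, and B cell markers are higher in all 5xFAD libraries.

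Among lymphatic genes other than Lyve1, Prox1, the factor that defines lymphatic identity, was listed at 0 in 5 of 6 libraries. Without Lyve1 the lymphatic list summed to 1.86, 3.52 and 1.73 FPKM in WT and 1.09, 4.74 and 4.99 FPKM in 5xFAD, so its lower sum in 5xFAD was that of Lyve1. Flt4, the VEGF-C receptor, was at 1.75, 3.23 and 1.42 FPKM in WT and 0.415, 2.42 and 1.01 FPKM in 5xFAD (log2 fold change -1.10, SE 0.99, edgeR adjusted p = 0.733). Of 18 other tested endothelial genes, 7 were negative, 3 at an unadjusted p under 0.05 (45.9% and 3.55% of all genes), and the median was 0.18, on the other side of 0 from that of the 40. Epas1, the hypoxia factor HIF-2α, was the most abundant of them, at 241, 236 and 162 FPKM in WT and 141, 174 and 144 FPKM in 5xFAD (log2 fold change -0.59, SE 0.23, edgeR adjusted p = 0.3201). Foxf1, a forkhead factor of lung vessels, had the smallest p, at 44.8, 46.9 and 86.95 FPKM in WT and 11.9, 38.95 and 32.6 FPKM in 5xFAD (log2 fold change -1.01, SE 0.39, edgeR adjusted p = 0.316), in a locus that holds 75 genes. Over all 38 tested endothelial genes outside the 40, 22 were negative, with a median of -0.29.

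By mean FPKM, 14 of the 40 genes stood above 40, 21 between 5 and 40, and 5 under 5 (Ednrb, Robo4, Aplnr, Mmrn2 and Nos3). The WT mean lay under 1 FPKM for Aplnr and Nos3, which passed the filter through 5xFAD. Of the 30 genes without an unadjusted p under 0.05, 25 had a negative log2 fold change. The 32 genes alone in their locus include all 10 at an unadjusted p under 0.05, and Cyyr1, Nos3 and Plvap also share theirs. The locus of Cyyr1 holds 6 genes, App among them, and the division of reads there was not tested. The log2 fold change had opposite signs in limma on log2(FPKM + 1) and in edgeR on counts for Sox18, Mmrn2 and Plvap. In the coordinates of the table, Hpgd spans chromosome 8, 56294552 to 56321046. Robo4 spans chromosome 9, 37401897 to 37414023. Vwf spans chromosome 6, 125546774 to 125686679. Ptprb spans chromosome 10, 116301374 to 116389538. Tek spans chromosome 4, 94739289 to 94874976. Acvrl1 spans chromosome 15, 101128522 to 101145336. Tmem100 spans chromosome 11, 90030348 to 90036508. Bmpr2 spans chromosome 1, 59764279 to 59870549. Clec14a spans chromosome 12, 58264720 to 58269258. Lyve1 spans chromosome 7, 110850607 to 110862953.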

How the data were processed

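RNA sequencing of lung B cell fractions from 3 WT and 3 5xFAD samples was used. Cutadapt 1.9.3, HISAT2 2.0.4, Cuffdiff and Cufflinks appear in the submitters' processing notes, as do GRCm38 and mm10, and no role is given for any. The deposited table holds FPKM and estimated counts for each library, both made by the authors, per the file headers. Nothing used here names the annotation release or the strand setting of the counting. Estimated counts in the deposited table are not whole, but 93.9% to 97.3% of values from 0.5 steps up in a library were multiples of a step near 1, within 0.05 steps. FPKM per count differed between libraries for the same gene, so the scales can disagree. An exact 0 can be a failed estimate.

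Samples were grouped by their labels. The 162 rows sharing 79 symbols were summed, giving 22481 genes. Counts were rounded and tested with edgeR 4.0.16 (quasi-likelihood, TMM, genotype only) in R 4.3.3 on the 9651 genes averaging 1 FPKM or more, with Benjamini-Hochberg adjustment, and the fit was first tested on simulated data. The SE is the size of the log2 fold change divided by the root of F. List sums are described without a test. The 40 genes, lists and rules were chosen with earlier results of these data known. Values are given in full for genes below an unadjusted p of 0.05 and for the 10 highest by mean FPKM, and each further endothelial list names its smallest p and its most abundant gene. Alternatives were DESeq2 1.42.0, limma 3.58.1 on log2(FPKM + 1) and log2(FPKM + 0.1), other scalings and filters, summed loci, a replicate block and each library left out. No pair of libraries agreed within sampling noise (chi-square per degree of freedom 6.23 to 20.6), and 1 count was worth 1.28 to 1.59 CPM.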

Additional observations from a re-analysis of the deposited data

How the results depend on the processing

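Over 18 other settings, 29 of the 40 genes kept the sign of their log2 fold change wherever they were tested, and 11 changed it in at least 1. Of 715 gene and setting pairs, 688 kept sign and side of the threshold, 25 changed sign and 2 passed the adjustment. With 1 library left out, the count of called genes (0) ranged from 0 to 1, that of lower genes at an unadjusted p under 0.05 (9) from 6 to 14, that of higher genes (1) from 0 to 2 and that of negative values (34) from 28 to 35. Higher genes numbered 0 without 5xFAD replicate 1 and 2 without WT replicate 2. Limma on log2(FPKM + 1) gave 5 lower and 2 higher, limma on log2(FPKM + 0.1) gave 3 lower, and DESeq2 gave 2 higher; the cause was not tested. From a mean of 5 FPKM, 35 genes without Robo4 were tested and 0 were higher.

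The replicate numbers were not shown to pair the samples: deviations of same-numbered libraries correlated by 0.0153, 0.0218 and -0.0169 over genes. With the number as a replicate block, 26 genes of the table were called in place of 11, and 0 of the 40; Plvap (0.12) and Mmrn2 (0.59) changed sign there. Other counts of calls over all genes that moved by over 1.5 times were 54 higher and 8 lower by DESeq2, 53 and 9 without a filter, 18 and 4 with library totals alone, 6 and 1 with DESeq2 size factors or a count filter, 5 and 0 from a mean of 5 FPKM, 7 and 0 with loci summed, and 0 by limma (887 higher and 261 lower at an unadjusted p under 0.05). With 1 library left out, 3 to 56 were higher and 0 to 22 lower. The median log2 fold change of all genes, 0.11, was 0.29 with the block and without a filter, 0.24 and 0.43 with limma at pseudocounts of 1 and 0.1, and 0.03 with loci summed; with 1 library left out it ran from -0.01 to 0.19, so the value the 40 genes are set against can vanish or change sign. Plvap was 0.0092 with library totals without Lars2, 0.0066 without a filter, 0.23 and 0.25 with limma at pseudocounts of 1 and 0.1. In the same limma fits Mmrn2 was 0.23 and 0.73, and Sox18 0.19 and 1.13. With 1 library left out, the log2 fold change ran for Car4 from -1.06 to 0.42, for Cldn5 from -0.68 to 0.053, for Ednrb from -1.08 to 0.29, for Egfl7 from -0.15 to 0.48, for Eng from -0.32 to 0.43, for Mmrn2 from -0.59 to 1.34, for Plvap from -0.29 to 0.51, for Sema3c from -0.85 to 0.42, for Thbd from -0.56 to 0.13, for Tie1 from -0.65 to 0.00047.

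The log2 ratio of summed FPKM, 5xFAD over WT, was -0.38 for the 40 genes (-0.51 to -0.24 with 1 library left out, -0.62 in CPM without Lars2). It ran from -0.96 to -0.49 for capillary, -1.01 to -0.65 for venous, -0.92 to -0.26 for arterial (-0.26 without WT replicate 3) and -1.02 to -0.62 for lymphatic genes. Without the 3 most abundant genes the venous value was -0.23 and the lymphatic 1.45, from few counts, and in CPM the lymphatic value was -1.13. Counts divided by the step of their library, chosen after seeing the data, changed no call or sign among the 40. Depth limits Nos3, Mmrn2, Aplnr, Gpihbp1 and the SOXF genes most.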
